A study of Homo sapiens with 6 samples.

Results

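The 9 genes described here encode the scaffold and catalytic subunits of protein phosphatase 2A (PP2A) and 5 subunits of STRIPAK, the striatin-interacting phosphatase and kinase complex. They were chosen by name, as the rows whose Ensembl identifier carries the symbol PPP2R1A, PPP2R1B, PPP2CA, PPP2CB, STRN, STRN3, STRN4, MOB4 or SLMAP in GENCODE 29. Each of the 9 was listed in all libraries, among 19746 genes left after identifiers with identical values were merged. Each was also among the 12756 genes tested, which had a mean of at least 0.5 FPKM. FPKM is fragments per kilobase of transcript scaled to library size, a level that takes gene length into account.

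PP2A is a serine/threonine phosphatase in which a scaffold (A) subunit holds a catalytic (C) subunit, and a regulatory (B) subunit directs the enzyme to its substrates. The striatins are one class of B subunit, and in STRIPAK they bring PP2A together with MOB4, SLMAP and kinases of the germinal center family. STRIPAK is known for dephosphorylating the Hippo kinases MST1 and MST2, which act through LATS1 and LATS2 to phosphorylate the transcriptional coactivator YAP1.

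The libraries were made from SW480, an established human colorectal cancer cell line, to look for genes downstream of PCYT2, the rate-limiting enzyme of phosphatidylethanolamine synthesis. Groups comprised cells with the control shNT (2 libraries), the PCYT2 hairpin shPcyt2-1 (2 libraries) and the PCYT2 hairpin shPcyt2-2 (2 libraries). By the study's methods, PCYT2 hairpins were delivered with a pLKO.1 lentiviral vector and infected cells were selected with puromycin. The control is labelled shNT and is called a vector control in the methods, which do not describe it further. Nothing in the labels says that the libraries of a group came from separate cultures, so p-values measure the spread between these libraries, which may be technical.

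All 10 markers of a colon epithelial line were at a mean of at least 0.5 FPKM, with KRT8 at 3380 FPKM, EPCAM at 289 FPKM and CDX2 at 13.9 FPKM. Of markers of other cell types, 0 of 4 endothelial, 2 of 6 fibroblast (LUM at 1.42 FPKM and COL1A1 at 1.33 FPKM) and 2 of 5 leukocyte markers (LYZ at 1.69 FPKM and CD14 at 0.922 FPKM) reached that mean. COL3A1, of the fibroblast markers, and PTPRC, of the leukocyte markers, were listed in no library. The summed level of the epithelial markers was 8270 and 8844 FPKM with shNT, 8488 and 8573 FPKM with shPcyt2-1, and 6319 and 6602 FPKM with shPcyt2-2. Most of that sum was keratin RNA (KRT8, KRT18 and KRT19), which was lower in both shPcyt2-2 libraries than in the other 4. Other markers of the same list went the other way, since CDH1 was at 15.1 and 14.7 FPKM with shNT and 17.3 and 16.9 FPKM with shPcyt2-2, and VIL1 at 38.8 and 39.2 against 44.7 and 41.3 FPKM. CDX1 and LGR5 were also above shNT in both shPcyt2-2 libraries, and CDX2 was lower in both shPcyt2-1 libraries (9.88 FPKM in replicate 2) than in the other 4 (15.1 to 16.9 FPKM).

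The summed fibroblast markers, though low, were higher in all knockdown libraries, at 2.24 and 2.45 FPKM with shNT, 3.61 and 4.11 FPKM with shPcyt2-1, and 3.78 and 3.56 FPKM with shPcyt2-2. LUM alone was at 0.789 and 0.863 FPKM with shNT, 2.17 and 2.24 FPKM with shPcyt2-1, and 1.37 and 1.09 FPKM with shPcyt2-2. COL1A1 was at 1.08 and 1.03 FPKM with shNT, 1.16 and 1.50 FPKM with shPcyt2-1, and 1.53 and 1.68 FPKM with shPcyt2-2. PDGFRB was lower than shNT (0.364 and 0.507 FPKM) with shPcyt2-1 (0.225 and 0.309 FPKM) and higher with shPcyt2-2 (0.795 and 0.739 FPKM). The part of these markers in the results was not tested.

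PCYT2 itself stood at 11.6 and 13.8 FPKM with shNT, at 7.11 and 7.36 FPKM with shPcyt2-1, and at 6.71 and 6.18 FPKM with shPcyt2-2. Both hairpins lowered it, and no knockdown library reached a control library. The ratio of mean FPKM was 0.57 for shPcyt2-1 (log2 difference -0.73 ± 0.10 SE, limma adjusted p = 0.00205) and 0.507 for shPcyt2-2 (-0.88 ± 0.10 SE, limma adjusted p = 0.00261). All log2 differences given here are on the log2(FPKM + 1) scale, which understates the change of genes with low levels. In bulk RNA, a change in some cells and a smaller change in all cells cannot be told apart.

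The 9 transcripts spanned a wide range of levels. With shNT the order by mean FPKM, with the SD over 2 libraries, was STRN4 at 79.4 ± 5.66, PPP2R1A at 65.0 ± 2.94, PPP2CA at 29.5 ± 1.60, PPP2CB at 20.2 ± 1.15, SLMAP at 6.44 ± 0.389, MOB4 at 5.25 ± 0.875, PPP2R1B at 4.38 ± 0.108, STRN3 at 3.57 ± 0.443 and STRN at 2.19 ± 0.252. No neighbours in this order overlapped in their shNT libraries. The first 4 places were the same with both PCYT2 hairpins, while MOB4, SLMAP and PPP2R1B overlapped as neighbours with shPcyt2-1, and MOB4 with SLMAP and STRN3 with STRN overlapped with shPcyt2-2. In the mean over the 6 libraries, STRN4 lay above 93.8% and PPP2R1A above 92.7% of tested genes, and STRN lay above 25.1%.

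**Figure D1:**
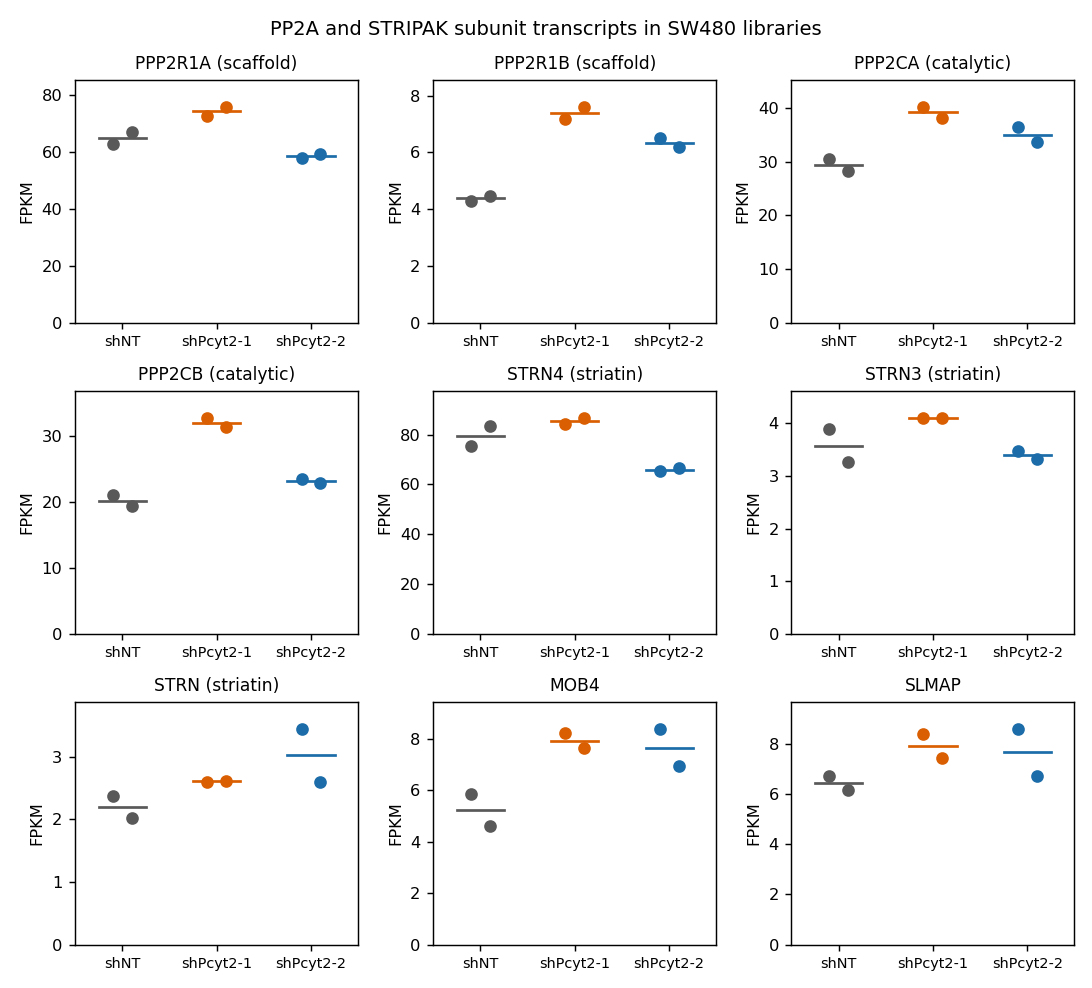
FPKM of the 9 subunit genes in each library, with shNT in gray, shPcyt2-1 in orange and shPcyt2-2 in blue; points are libraries, lines are means of 2, and each panel has its own axis from 0. PPP2R1A and STRN4 were lower with shPcyt2-2 than with shPcyt2-1, and PPP2R1B and MOB4 were higher than shNT with both hairpins.

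With shPcyt2-1, transcripts of both scaffold genes, both catalytic genes and MOB4 were higher than with shNT. That is 5 of the 9 genes higher and 0 lower at a limma adjusted p under 0.05, where 16.5% of all tested genes were called higher, 10.1% lower and 26.7% in either direction. With shPcyt2-2 the picture differed, since PPP2R1B and MOB4 were higher and STRN4 was lower. These 2 higher calls and 1 lower call compare with 7.69% of all tested genes called higher, 4.74% called lower and 12.4% in either direction. PPP2R1B and MOB4 were the 2 members called higher with both hairpins, against 3.09% of tested genes. The 5 calls with shPcyt2-1 became 2 without shPcyt2-1 replicate 1 and 3 without a filter on low values, and the 3 with shPcyt2-2 became 0 without shNT replicate 2, either shPcyt2-2 library or the filter, and 1 without a variance trend. The 2 comparisons share the shNT libraries. Counting only whether libraries of the groups overlapped, all 9 members were above shNT with shPcyt2-1 (43.3% of tested genes were), and with shPcyt2-2 5 were above (35.1% were) and 2 below (22.4% were). The median log2 difference of the 9 genes was 0.26 with shPcyt2-1, where that of all tested genes was 0.07, and 0.21 with shPcyt2-2, where that of all tested genes was 0.04.

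**Figure D2:**
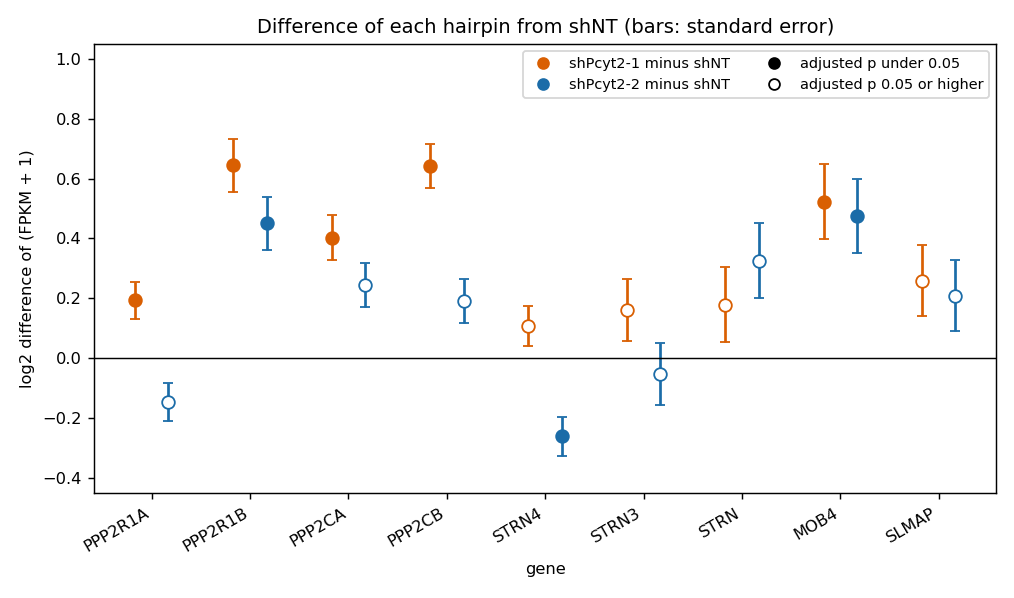
Log2 difference of (FPKM + 1) from shNT for the 9 genes, with shPcyt2-1 in orange and shPcyt2-2 in blue; bars are the standard error from the limma fit and filled points have an adjusted p under 0.05. For PPP2R1A, STRN4 and STRN3 the points of the hairpins lie on opposite sides of 0, and of these 6 points PPP2R1A with shPcyt2-1 and STRN4 with shPcyt2-2 passed the threshold.

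PPP2R1A encodes the alpha isoform of the scaffold, the main A subunit in most cells, at chr19:52190039-52229533 on the plus strand (GRCh38, GENCODE 29). Its levels were 62.9 and 67.1 FPKM with shNT, 72.9 and 76.0 FPKM with shPcyt2-1, and 58.1 and 59.2 FPKM with shPcyt2-2. The shPcyt2-1 libraries were thus the highest and the shPcyt2-2 libraries the lowest, with no overlap between any groups. Against shNT the log2 difference was 0.19 ± 0.06 SE with shPcyt2-1 (limma adjusted p = 0.0493) and -0.15 ± 0.06 SE with shPcyt2-2 (limma adjusted p = 0.150). The hairpins differed from each other by -0.34 ± 0.06 SE (shPcyt2-2 minus shPcyt2-1, limma adjusted p = 0.00492). That difference stayed past the threshold under all 14 alternatives run, between -0.37 and -0.31. The call against shNT with shPcyt2-1 sat at the threshold and held in 3 of 14 alternatives, with an adjusted p of 0.126 without shNT replicate 1, 0.161 and 0.261 without either shPcyt2-1 library, and 0.0697 and 0.0696 without either shPcyt2-2 library. Median-ratio scaling reduced it to 0.12 (adjusted p = 0.266).

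PPP2R1B encodes the beta isoform of the scaffold, at chr11:111726908-111766427 on the minus strand. It measured 4.30 and 4.45 FPKM with shNT, 7.19 and 7.61 FPKM with shPcyt2-1, and 6.50 and 6.19 FPKM with shPcyt2-2. Every knockdown library was above both control libraries. Mean FPKM was 1.69 times that of shNT with shPcyt2-1 (log2 difference 0.64 ± 0.09 SE, limma adjusted p = 0.00219) and 1.45 times with shPcyt2-2 (0.45 ± 0.09 SE, limma adjusted p = 0.0169). Between the hairpins the value was -0.19 ± 0.09 SE, which did not pass (limma adjusted p = 0.141). Over 14 alternatives the smallest difference from shNT was 0.5 with shPcyt2-1 and 0.317 with shPcyt2-2. The shPcyt2-2 call was lost without shNT replicate 2 (limma adjusted p = 0.0640), without shPcyt2-2 replicate 1 (0.102), without shPcyt2-2 replicate 2 (0.0525) and without a filter on low values (0.0680).

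For the scaffold genes, the 250 bases before the RefSeq start of each are shown here (GRCh38.p14, read along the gene's strand). The windows are PPP2R1A at chr19:52189802-52190051 and PPP2R1B at chr11:111766390-111766639. MOB4, also called with both hairpins, had a searched window that is not shown. Capitals mark matches to CCAAT (the box bound by NF-Y), TGACGTCA (the cyclic AMP response element) and CATTCC (the motif bound by TEAD factors, the DNA-binding partners of YAP1), searched on both strands, and no matches overlap.
PPP2R1A: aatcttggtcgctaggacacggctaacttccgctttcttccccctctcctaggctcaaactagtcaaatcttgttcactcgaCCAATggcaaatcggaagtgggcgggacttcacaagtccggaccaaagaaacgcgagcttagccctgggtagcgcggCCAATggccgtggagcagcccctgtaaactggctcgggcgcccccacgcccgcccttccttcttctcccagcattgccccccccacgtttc
PPP2R1B: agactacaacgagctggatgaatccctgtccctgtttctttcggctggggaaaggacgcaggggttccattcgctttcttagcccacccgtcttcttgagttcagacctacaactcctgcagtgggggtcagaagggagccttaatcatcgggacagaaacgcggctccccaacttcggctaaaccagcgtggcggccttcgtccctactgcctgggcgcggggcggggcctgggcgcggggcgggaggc
PPP2R1A held 2 CCAAT matches and PPP2R1B held none of the 3 motifs. Of 35116 RefSeq windows of the same length, 32.0% held CCAAT, 1.65% held TGACGTCA and 11.9% held CATTCC. Matches describe these letters only and are not evidence of binding.

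As a share of summed scaffold FPKM, PPP2R1A made up 93.6% and 93.8% with shNT, 91.0% and 90.9% with shPcyt2-1, and 89.9% and 90.5% with shPcyt2-2. All 4 knockdown libraries were below both controls (mean difference -3.10 percentage points, exact two-sided permutation test, p = 0.0667, n = 4 and 2, the smallest p this design allows, adjusted p = 0.512 over 20 share comparisons). Summed scaffold RNA itself was 67.2 and 71.5 FPKM with shNT, 80.1 and 83.6 FPKM with shPcyt2-1, and 64.6 and 65.4 FPKM with shPcyt2-2. The shift in share therefore went with a higher sum in one knockdown group and a lower sum in the other.

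PPP2CA encodes the alpha isoform of the catalytic subunit, at chr5:134194334-134226142 on the minus strand. It stood at 30.6 and 28.3 FPKM with shNT, 40.3 and 38.2 FPKM with shPcyt2-1, and 36.5 and 33.6 FPKM with shPcyt2-2. Knockdown libraries were again all above the controls. The difference passed with shPcyt2-1 (0.40 ± 0.07 SE, limma adjusted p = 0.00618) and was 0.24 ± 0.07 SE with shPcyt2-2 (limma adjusted p = 0.0620). Without shPcyt2-1 replicate 1 the former became 0.0514, and without shNT replicate 1 the latter became 0.0456. After correction of each library for GC content and transcript length the differences were 0.24 with shPcyt2-1, still past the threshold, and 0.0946 with shPcyt2-2. Between the hairpins the difference was -0.16 ± 0.07 SE (limma adjusted p = 0.146), and it passed after the same correction (limma adjusted p = 0.0390). GENCODE marks PPP2CA as overlapping another locus, and how reads there were assigned is not given in the sources used here.

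The window before PPP2CA, at chr5:134226074-134226323, is shown because it was one of 7 members with a searched window and held the only TGACGTCA match among them.
PPP2CA: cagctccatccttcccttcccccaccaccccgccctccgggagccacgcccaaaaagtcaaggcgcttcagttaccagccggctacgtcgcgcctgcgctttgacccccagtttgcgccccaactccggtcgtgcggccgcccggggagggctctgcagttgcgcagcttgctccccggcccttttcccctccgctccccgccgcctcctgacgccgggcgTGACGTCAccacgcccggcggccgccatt
Among these 7 windows, CCAAT was found in PPP2R1A and CATTCC in SLMAP (1 match), and STRN, STRN3 and MOB4 held none of the 3 motifs. A count of GGGCGG, the GC box bound by SP1, gave 5 matches in STRN, 3 in STRN3, 2 each in PPP2R1A, PPP2R1B and PPP2CA and 0 in MOB4 and SLMAP, where 42.6% of all windows held at least 1.

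PPP2CB encodes the beta isoform of the catalytic subunit. Its levels were 21.0 and 19.3 FPKM with shNT, 32.7 and 31.3 FPKM with shPcyt2-1, and 23.5 and 22.8 FPKM with shPcyt2-2. The shPcyt2-1 libraries stood clear of the rest, and the shPcyt2-2 libraries lay just above the controls. With shPcyt2-1 the mean was 1.59 times that of shNT (0.64 ± 0.07 SE, limma adjusted p = 0.00109), and this call held under all 14 alternatives. With shPcyt2-2 the difference was 0.19 ± 0.07 SE (limma adjusted p = 0.115). The hairpins differed by -0.45 ± 0.07 SE (limma adjusted p = 0.00267), which also held under all 14 alternatives.

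Accordingly the share of PPP2CA in summed catalytic FPKM was 59.3% and 59.4% with shNT, 55.2% and 55.0% with shPcyt2-1, and 60.9% and 59.7% with shPcyt2-2. Only the shPcyt2-1 libraries were below the controls (mean difference -4.28 percentage points, exact two-sided permutation test, p = 0.333, n = 2 and 2, which is the smallest p that 2 against 2 libraries allow). Summed scaffold FPKM per summed catalytic FPKM was 1.30 and 1.50 with shNT, 1.10 and 1.20 with shPcyt2-1, and 1.08 and 1.16 with shPcyt2-2. Both PCYT2 hairpins were thus below the controls in this ratio of transcripts, which was not tested.

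**Figure D3:**
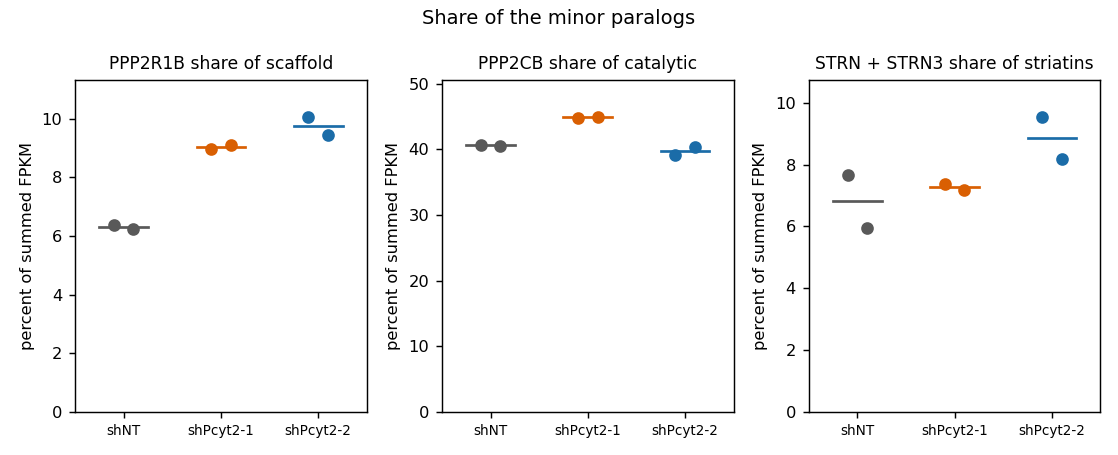
Share of the less abundant paralogs in the summed FPKM of their family, in percent from 0, by library, with group means as lines: PPP2R1B of scaffold, PPP2CB of catalytic, and STRN with STRN3 of striatins. PPP2R1B lies above the controls in all 4 knockdown libraries, whereas PPP2CB stands apart with shPcyt2-1.

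Among the striatins, the B subunits that build STRIPAK, STRN4 carried most of the RNA. STRN4 was at 75.4 and 83.4 FPKM with shNT, 84.3 and 86.8 FPKM with shPcyt2-1, and 65.5 and 66.5 FPKM with shPcyt2-2. The shPcyt2-2 libraries were the lowest, and those of shPcyt2-1 lay just above the higher control. STRN4 fell with shPcyt2-2 (-0.26 ± 0.07 SE, limma adjusted p = 0.0355), was 0.11 ± 0.07 SE with shPcyt2-1 (limma adjusted p = 0.254), and differed between the hairpins by -0.37 ± 0.07 SE (limma adjusted p = 0.00431). The last held under all 14 alternatives. The call against shNT with shPcyt2-2 held in 6 of 14 and was lost without shNT replicate 2 (0.132), without either shPcyt2-1 library (0.0553 and 0.0558) and without either shPcyt2-2 library (0.167 and 0.0987). STRN4 has the most GC-rich transcript of the set, 63.9% in its longest isoform, above 93.2% of tested genes. Correction of each library for GC content and transcript length gave a difference of 0.26 with shPcyt2-1 (limma adjusted p = 0.00609), which was not called without that step, and of -0.17 with shPcyt2-2 (limma adjusted p = 0.0406).

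STRN, the founding striatin, measured 2.37 and 2.02 FPKM with shNT, 2.60 and 2.62 FPKM with shPcyt2-1, and 3.44 and 2.60 FPKM with shPcyt2-2. STRN3 measured 3.89 and 3.26 FPKM with shNT, 4.10 and 4.10 FPKM with shPcyt2-1, and 3.47 and 3.33 FPKM with shPcyt2-2. Neither passed the test in any comparison. The log2 difference of STRN was 0.18 ± 0.13 SE with shPcyt2-1 (limma adjusted p = 0.315) and 0.33 ± 0.13 SE with shPcyt2-2 (limma adjusted p = 0.116), and that of STRN3 was 0.16 ± 0.10 SE (limma adjusted p = 0.276) and -0.05 ± 0.10 SE (limma adjusted p = 0.765). Without shPcyt2-2 replicate 1, at 3.44 FPKM, the shPcyt2-2 value of STRN was 0.17 (limma adjusted p = 0.445), and after the GC and length correction it was 0.12, with -0.0173 for shPcyt2-1. STRN4 made up 92.3% and 94.1% of summed striatin FPKM with shNT, 92.6% and 92.8% with shPcyt2-1, and 90.5% and 91.8% with shPcyt2-2. The shPcyt2-2 libraries were below both controls in this share (exact two-sided permutation test, p = 0.333, n = 2 and 2, the smallest possible).

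MOB4, which binds striatins inside STRIPAK, was at 5.86 and 4.63 FPKM with shNT, 8.24 and 7.63 FPKM with shPcyt2-1, and 8.39 and 6.95 FPKM with shPcyt2-2. All knockdown libraries exceeded both controls. MOB4 was higher with shPcyt2-1 (0.52 ± 0.12 SE, limma adjusted p = 0.0161) and with shPcyt2-2 (0.48 ± 0.12 SE, limma adjusted p = 0.0390), and the hairpins differed by -0.05 ± 0.12 SE (limma adjusted p = 0.805). The shPcyt2-1 call was lost without shNT replicate 2 (0.0909), without shPcyt2-1 replicate 1 (0.0848), and without a filter on low values (0.0792). The shPcyt2-2 call was lost without shNT replicate 2 (0.200), without shPcyt2-2 replicate 1 (0.213), without shPcyt2-2 replicate 2 (0.0606), without the filter (0.142), without a variance trend (0.0583) and after the GC and length correction (0.0613). That correction gave differences of 0.317 with shPcyt2-1 and 0.261 with shPcyt2-2. The readthrough gene HSPE1-MOB4 overlaps MOB4, so that the split of reads between them is uncertain. It was listed at 0.101 FPKM in shNT replicate 2 and 0.456 FPKM in shPcyt2-2 replicate 1 and was not listed in the other 4 libraries.

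SLMAP, the adaptor that recruits STRIPAK to phosphorylated MST1 and MST2, measured 6.72 and 6.17 FPKM with shNT, 8.38 and 7.44 FPKM with shPcyt2-1, and 8.58 and 6.71 FPKM with shPcyt2-2. The shPcyt2-1 libraries were above the controls, and 1 of the shPcyt2-2 libraries lay within their range. Its differences, 0.26 ± 0.12 SE (limma adjusted p = 0.135) and 0.21 ± 0.12 SE (limma adjusted p = 0.265), did not pass the threshold. After the GC and length correction they were 0.0748 and 0.0255, and without shPcyt2-2 replicate 1 the latter difference was 0.0523.

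Directly between the hairpins, PPP2R1A, PPP2CB and STRN4 were lower with shPcyt2-2 than with shPcyt2-1. These 3 of 9, with 0 higher, compare with 14.2% of all tested genes called lower, 12.9% called higher and 27.1% in either direction. By overlap alone, 6 members were lower in both shPcyt2-2 libraries than in both shPcyt2-1 libraries, as were 36.5% of tested genes. The 3 do not share a subunit role, being a scaffold, a catalytic subunit and a striatin. The median log2 difference over the 9 genes was -0.19, where that of all tested genes was -0.02.

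With the 4 knockdown libraries pooled against shNT, the spread between the hairpins enters the error. No member was called, and 1 of the 12756 tested genes was (0.00784%). At an unadjusted limma p under 0.05 the count was 4 of 9 members, all higher, against 16.7% of tested genes (11.7% higher). By overlap alone, 5 members were above both controls in all 4 knockdown libraries, as were 20.7% of tested genes. The 4 were PPP2R1B (0.55 ± 0.11 SE, limma adjusted p = 0.135), MOB4 (0.50 ± 0.12 SE, limma adjusted p = 0.158), PPP2CA (0.32 ± 0.09 SE, limma adjusted p = 0.189) and PPP2CB (0.42 ± 0.16 SE, limma adjusted p = 0.262). For PPP2R1A, with hairpins on opposite sides of the controls, the pooled difference was 0.02 ± 0.13 SE (limma adjusted p = 0.940). Corrected for GC content and length, PPP2CA was at 0.17 and MOB4 at 0.29 in this comparison. The smallest pooled difference of PPP2R1B over 14 alternatives was 0.408. When both hairpin effects were instead averaged within the 3-group model, where 16.8% of tested genes were called (10.9% higher), PPP2R1B, MOB4, PPP2CA and PPP2CB passed, at adjusted p values of 0.00584, 0.0183, 0.0146 and 0.00658.

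Other genes of these complexes were read in the same fit, so their counts stand against the shares of all tested genes called, 16.5% higher and 10.1% lower with shPcyt2-1, 7.69% and 4.74% with shPcyt2-2, and 12.9% and 14.2% between the hairpins. Of 11 further STRIPAK subunits, 8 were tested. STK26, a germinal center kinase, was higher with both hairpins, at 26.6 and 23.0 FPKM with shNT, 32.3 and 30.5 FPKM with shPcyt2-1 (0.33, limma adjusted p = 0.0264) and 34.1 and 30.5 FPKM with shPcyt2-2 (0.37, limma adjusted p = 0.0315). PDCD10, the adaptor that joins these kinases to STRIPAK, was higher with shPcyt2-2 (0.39, limma adjusted p = 0.0151), and 0 of 8 were lower with either hairpin. FGFR1OP2 differed between the hairpins, at 15.8 and 14.6 FPKM with shPcyt2-1 and 10.3 and 9.93 FPKM with shPcyt2-2 (-0.55 ± 0.09 SE, limma adjusted p = 0.00252). Median-ratio scaling gave 2 higher and 1 lower with shPcyt2-2, a replicate block 3 higher and 1 lower, and the GC and length correction 0 higher and 1 lower. With shPcyt2-1 the block gave 3 higher and 0 lower, and both other settings called 0. STK24, the most abundant of them at a mean of 55.7 FPKM, was called in no comparison. The 1 call with shPcyt2-1 became 0 without shNT replicate 2 or either shPcyt2-1 library and 3 without shNT replicate 1, the 2 with shPcyt2-2 became 0 without shNT replicate 2 or either shPcyt2-2 library, and the 1 between the hairpins became 4 without either shNT library.

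Regulatory B subunits of the other classes, which give PP2A its other substrates, included 11 tested genes of 12. With shPcyt2-1, 2 were higher and 1 was lower, with shPcyt2-2 1 was higher and 0 were lower, and between the hairpins 2 were lower with shPcyt2-2. The 3 calls with shPcyt2-1 and the 1 with shPcyt2-2 are close to the shares of all tested genes called in either direction, 26.7% and 12.4%. Those with shPcyt2-1 became 0 without shNT replicate 2 or shPcyt2-1 replicate 1 and 1 without shPcyt2-1 replicate 2, that with shPcyt2-2 became 2 without shNT replicate 1 and 0 without any other library, and those between the hairpins became 0 without shPcyt2-1 replicate 1 or shPcyt2-2 replicate 2. The GC and length correction gave 1 higher and 1 lower with shPcyt2-1, 0 with shPcyt2-2, and 1 higher and 4 lower between the hairpins. Median-ratio scaling gave 1 higher and 1 lower, 0, and 3 lower. The genes that differed between the hairpins were PPP2R3C, at 11.7 and 9.52 FPKM with shPcyt2-1 and 7.01 and 6.63 FPKM with shPcyt2-2 (-0.56 ± 0.11 SE, limma adjusted p = 0.00662), and PPP2R5D (-0.38 ± 0.09 SE, limma adjusted p = 0.0127). PPP2R5C, at a mean of 40.0 FPKM, and PPP2R2A, at 21.2 FPKM, were the most abundant, and PPP2R2A was the gene higher with shPcyt2-2 (0.30, limma adjusted p = 0.0455). Named after their values were seen, PPP2R3C (0.47) and PPP2R5A (0.25) were those higher and PPP2R2C (-0.30) the one lower with shPcyt2-1.

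All 11 assembly factors and inhibitors of PP2A were tested. IGBP1, which binds free catalytic subunits, was lower with both hairpins, at 80.1 and 74.7 FPKM with shNT, 60.1 and 61.0 FPKM with shPcyt2-1 (-0.35, limma adjusted p = 0.00520) and 65.8 and 66.8 FPKM with shPcyt2-2 (-0.22, limma adjusted p = 0.0495). With shPcyt2-1, 3 genes were higher. They were LCMT1 and PPME1, which add and remove the methyl group at the end of the catalytic subunit (0.29 and 0.34), and ENSA, an inhibitor of PP2A bound to B55 subunits (0.24). Between the hairpins 4 genes were lower with shPcyt2-2, namely ENSA (-0.45), LCMT1 (-0.29), PPME1 (-0.23) and PTPA (-0.22), and ARPP19, the paralog of ENSA, was higher (0.31). SET and ANP32A, inhibitors with the highest means at 136 and 72.1 FPKM, were called in no comparison. The 3 higher calls with shPcyt2-1 became 0 without either shPcyt2-1 library, the IGBP1 call with shPcyt2-2 was lost without any 1 of the 6 libraries, and the 5 calls between the hairpins became 1 or 2 without any 1 of the 4 hairpin libraries. The GC and length correction gave as many lower as higher with shPcyt2-1, 3 each, and 2 lower with shPcyt2-2.

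Subunits of the related phosphatases PP4 and PP6 gave 11 tested genes of 13. PPP6C, the PP6 catalytic subunit, was higher with both hairpins, at 10.3 and 9.03 FPKM with shNT, 13.7 and 13.5 FPKM with shPcyt2-1 (0.45, limma adjusted p = 0.00755) and 12.7 and 12.0 FPKM with shPcyt2-2 (0.33, limma adjusted p = 0.0436). ANKRD52, a PP6 regulatory subunit, was at 8.31 and 8.89 FPKM with shNT, 15.8 and 15.4 FPKM with shPcyt2-1 and 8.16 and 7.35 FPKM with shPcyt2-2. It was thus apart in the shPcyt2-1 libraries, higher than shNT by 0.79 (limma adjusted p = 0.000977) and than shPcyt2-2 by a difference of -0.92 ± 0.09 SE (shPcyt2-2 minus shPcyt2-1, limma adjusted p = 0.000246). The most abundant of the list, PPP4C at 65.6 FPKM and PPP6R1 at 61.2 FPKM, were called in no comparison. The list had 2 genes called with shPcyt2-1 (1 without shPcyt2-1 replicate 1), 1 with shPcyt2-2 (2 without shNT replicate 1 and 0 without any other library) and 1 between the hairpins (2 without either shNT library). With median-ratio scaling 0 genes were called higher and 1 lower with shPcyt2-2. PPP6C itself stayed above shNT under all 14 alternatives (0.136 to 0.416), so the lower call was of another gene. The GC and length correction gave 0 with shPcyt2-2, and 1 higher and 3 lower between the hairpins.

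Of the Hippo kinases and adaptors, the pathway on which STRIPAK acts, 20 of 21 were tested, with 4 higher and 0 lower with shPcyt2-1 and 8 higher and 0 lower with shPcyt2-2. All tested genes were called higher at 16.5% and 7.69%. The 4 became 0 without shNT replicate 2 or either shPcyt2-1 library and 6 without shNT replicate 1. The 8 became 0 without shPcyt2-2 replicate 1, 1 without shNT replicate 2 and 3 without any other library, and both counts were 0 without a filter on low values. Median-ratio scaling gave 4 higher with 2 lower for shPcyt2-1, and 7 higher with 1 lower for shPcyt2-2. A replicate block gave 7 higher for shPcyt2-1 and 8 higher for shPcyt2-2, with 0 lower for either. The GC and length correction turned the balance with shPcyt2-1, to 1 higher with 2 lower, and gave 6 higher with 2 lower for shPcyt2-2. The 4 calls between the hairpins became 1 or 2 without any 1 of the 4 hairpin libraries. MAP4K3 and MOB1B were higher with both (0.41 and 0.43 with shPcyt2-1, 0.42 and 0.39 with shPcyt2-2). STK4, which encodes MST1, was at 16.0 and 14.1 FPKM with shNT, 18.2 and 18.2 FPKM with shPcyt2-1 and 23.5 and 21.6 FPKM with shPcyt2-2, and it differed between the hairpins by 0.29 ± 0.09 SE (limma adjusted p = 0.0323). LATS2 (0.43), TAOK3 (0.43) and MINK1 (0.31) were likewise higher with shPcyt2-2 than with shPcyt2-1, the direction opposite to that of PPP2R1A, PPP2CB and STRN4. YAP1 was at 25.8 and 25.5 FPKM with shNT, 28.4 and 28.1 FPKM with shPcyt2-1 and 36.4 and 30.7 FPKM with shPcyt2-2 (0.37 against shNT, limma adjusted p = 0.0268). The list's median log2 difference was 0.14 with shPcyt2-1 and 0.24 with shPcyt2-2, where those of all tested genes were 0.07 and 0.04. In the pooled comparison 0 genes of any of these 5 lists were called. With the hairpin effects averaged in the 3-group model, where 16.8% of tested genes were called (10.9% higher), 6 Hippo genes, 2 other STRIPAK subunits, 2 PP4 and PP6 subunits and 1 B subunit were higher, and of the assembly factors 1 was higher and 1 lower. Named after their values were seen, LATS1 (0.40) and MAP4K5 (0.40) were the others higher with shPcyt2-1.

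Many of these list calls rest on few libraries, and the differences changed in size as well. Over 14 alternatives the smallest in size with shPcyt2-1 were 0.122 for STK26, -0.299 for IGBP1, 0.262 for PPP6C, 0.233 for MAP4K3 and 0.203 for MOB1B. For shPcyt2-2 they were 0.169, -0.17, 0.136, 0.245 and 0.124 in the same order. With shPcyt2-1 and with shPcyt2-2 respectively, STK26 was past the threshold in 7 and 8 of 14 alternatives, IGBP1 in 14 and 4, PPP6C in 13 and 4, MAP4K3 in 10 and 5, and MOB1B in 9 and 5. Between the hairpins, FGFR1OP2, ENSA and ANKRD52 passed in all 14, PPP2R3C, PPP2R5D, LCMT1 and MINK1 in 12, TAOK3 in 11, LATS2 in 10, ARPP19 in 9, STK4 and PPME1 in 8, and PTPA in 7.

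By Euclidean distance of log2(FPKM + 1) from the shNT mean over the 6 libraries, among 5268 genes with a mean of at least 10 FPKM, the genes most like PPP2R1A were DPP3 (distance 0.0517), CSK (0.0605), RNF10 (0.0691), YKT6 (0.0877) and COASY (0.0883). Each was higher with shPcyt2-1 (log2 differences of 0.17 to 0.21) and lower with shPcyt2-2 (-0.17 to -0.11) on average, as the choice by distance entails. Nearest to PPP2CA were KIF23 (0.0462), VAPB (0.0484), TMEM50A (0.0507), KPNA2 (0.0519) and DDX6 (0.0544), with differences of 0.37 to 0.43 with shPcyt2-1 and 0.22 to 0.26 with shPcyt2-2.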

How the data were processed

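RNA-Seq values of 6 SW480 libraries were used, grouped by the labels. The authors deposited 1 table of normalized values per library, read here as FPKM from the values themselves (sums of 396467 to 402612 per library). Partial TPM values would look the same. The labels name GRCh38, GRCm38 and mm10 as builds, and 2 library kits without saying which was used for a library; the aligner and annotation are not given in the sources used here. Genes at 0 are not listed, no common step of 1 read was found, and the depth is therefore unknown, so no counting interval is given. The 13 protein-coding genes of the mitochondrial genome have no row.

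Repeated rows of 1 identifier were summed, and unlisted genes were set to 0. Identifiers with identical values in all libraries were merged where at least 3 libraries were above 0. This took 21539 identifiers to 19746 genes. Genes with a mean of at least 0.5 FPKM were tested on log2(FPKM + 1) by limma 3.58.1 (R 4.3.3) with a variance trend and Benjamini-Hochberg adjustment (threshold 0.05). Each hairpin was compared in a fit with 3 groups, and pooled knockdown in a fit with 2 groups. A count test had been foreseen in case the files held counts. Fits were tested on simulated data. Paralog shares were compared by exact permutation tests over libraries (Python 3.11.15). Alternatives were a pseudocount of 0.1, no filter, a replicate block, leaving out each library, median-ratio scaling, a correction for GC content and length, no variance trend, the highest of repeated rows, another grouping and MOB4 plus HSPE1-MOB4.

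Genes were named by rule: the 9 members, PCYT2, list genes called in the same direction with both hairpins or between the hairpins, the 2 highest of each list, and the 5 nearest profiles. The members, lists and rules were chosen with earlier results of these data known. GENCODE 29 gave gene names and positions, and RefSeq (GRCh38.p14) the promoter windows, the one nearest to the GENCODE start of each gene.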

Additional observations from a re-analysis of the deposited data

Results flagged for a closer look

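The hairpins differed from each other, by the limma contrast of shPcyt2-2 minus shPcyt2-1, in 3 of the 9 subunit genes: PPP2R1A (-0.34 on the log2 scale), PPP2CB (-0.45) and STRN4 (-0.37). Among the related lists the same contrast passed for PPP2R3C (-0.56), FGFR1OP2 (-0.55), PPP2R5D (-0.38), PTPA (-0.22), ANKRD52 (-0.92), ENSA (-0.45), LCMT1 (-0.29) and PPME1 (-0.23), which were lower with shPcyt2-2, and for STK4 (0.29), ARPP19 (0.31), TAOK3 (0.43), MINK1 (0.31) and LATS2 (0.43), which were higher. Across all tested genes 27.1% passed this contrast.

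One value stood apart within the 4 knockdown libraries: STRN in shPcyt2-2 replicate 1, at 3.44 FPKM where the other 3 were between 2.60 and 2.62 FPKM, with a gap of 0.975 of the whole range, beyond the 95% critical value of Dixon’s test. These 4 libraries carry different hairpins, 15 such groups of 4 were looked at, and chance alone gives about 1 in 20.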

How the results depend on the processing

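With 2 libraries per group the calls are fragile, and low values, unknown depth and an unstated unit limit them further. Of 508 log2 differences of the 9 members recomputed under the alternatives, 452 kept their direction and side of the threshold, 33 lost a call, 8 gained one and 15 changed sign. Of 378 for PCYT2 and the named list genes, 276 kept both, 100 lost a call, 2 gained one and 0 changed sign. The call of PPP2R1A, PPP2CB and STRN4 between the hairpins held under every alternative run. Count tests (edgeR or DESeq2) could not be applied to these normalized values. Where a result moved, the cause was not tested.

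Without a filter on low values, 1831 genes and 3 members were called with shPcyt2-1 (3400 and 5 with the filter), 124 genes and 0 members with shPcyt2-2 (1585 and 3), and 7 genes in the pooled comparison (1), and the lists had 2 (Hippo), 1 (other STRIPAK) and 3 (B subunits) genes called in any of the 3 comparisons, in place of 10, 3 and 5, all between the hairpins except 1 B subunit with shPcyt2-1. Without a variance trend 1027 genes and 1 member were called with shPcyt2-2. The pooled count was 0 genes with a pseudocount of 0.1, and with the hairpins averaged in the fit of 3 groups it was 2142 genes and 4 members. Fits on only the groups compared called 5 other STRIPAK genes, and the GC and length correction called 5 PP4 and PP6 genes in place of 2.

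Leaving out each library in turn gave 1147 to 3256 genes and 2 to 4 members with shPcyt2-1, 125 to 1893 genes and 0 to 4 members with shPcyt2-2 (0 members without shNT replicate 2 or either shPcyt2-2 library), 1662 to 3785 genes and 3 members between the hairpins, and 0 to 1 gene and 0 members pooled. The lists ranged from 4 to 10 (Hippo), 2 to 5 (other STRIPAK), 2 to 6 (assembly factors), 0 to 4 (B subunits) and 1 to 3 genes (PP4 and PP6). A lone library left in a group was assumed to vary like the others. No member changed sign in a comparison in which it was called. Left-out libraries moved STRN3 with shPcyt2-2 from -0.15 to 0.0457, STRN from -0.0047 to 0.30, MOB4 from -0.168 to 0.0719 and SLMAP from -0.21 to 0.11 between the hairpins, and pooled PPP2R1A from -0.043 to 0.0845 and STRN3 from -0.0449 to 0.153. The share of STRN3 in striatins, 0.353 percentage points higher in the pooled knockdown, ranged from -0.188 to 0.895. Median-ratio scaling, which brought the median of all genes with shPcyt2-1 from 0.07 to 0.01, turned pooled PPP2R1A to -0.0388. The GC and length correction turned STRN (-0.0173) and STRN3 (-0.0104) with shPcyt2-1, and pooled STRN3 (-0.11) and STRN4 (0.0437).

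The labels number the libraries 1 and 2 in each group. Deviations of same-numbered libraries from their group means correlated at 0.0027 (shNT and shPcyt2-1), 0.0619 (shNT and shPcyt2-2) and 0.191 (shPcyt2-1 and shPcyt2-2). Whether a shared number stands for a shared batch was not tested. With a replicate block, 3884 genes and 5 members were called with shPcyt2-1, 2029 and 4 with shPcyt2-2, 3869 and 3 between the hairpins and 0 and 0 pooled, and 5 other STRIPAK and 4 PP4 and PP6 genes were called. PPP2CA with shPcyt2-2 passed under the block (limma adjusted p = 0.0353).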
